A study of Mus musculus with 1615 samples.

Results

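Blood endothelial cells line the arteries, capillaries and veins of the colon wall, and 270 of the 1615 single colon cells in this series (16.7%) were assigned to them. They were chosen by the measured level of 7 genes in each cell, as CPM, the count scaled to a fixed total of gene counts per cell, with spike-ins left out of that total. A cell entered with at least 50 CPM of Cdh5 and at least 100 CPM of Flt1, under 500 CPM of the lymphatic genes Mmrn1 and Lyve1 summed, under 200 CPM of the mural gene Notch3, under 100 CPM of the epithelial gene Epcam and under 1000 CPM of the smooth muscle gene Myh11. Levels of these 7 genes, and of any gene against the cells outside the gate, are therefore a description and carry no test.

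The study sorted single cells of adult reporter mice into plates by fluorescence and sequenced each cell as a full-length cDNA library (Smart-Seq2, a protocol without molecular identifiers). The labels give colon as the tissue, although their extraction text speaks of hearts being dissociated, and no sorting gate is stated in them. The blood endothelial cells came from 6 male mice of 4 reporter lines, all labelled 8 to 30 weeks old, although the series text speaks of males of 8 to 21 weeks. The PDGFRbGFP line gave 51 and 54 cells from the 2 plates of mouse 17E61:24 and 41 from mouse 19CB4:5. The PDGFRaH2bGFP line gave 37 cells from mouse 18CB39:3 and 16 from mouse 18CB109:10. The CSPG4dsRED line gave 47 cells from mouse 19CB27:3, and the dual line ACTA2GFP:CSPG4dsRED gave 24 from its male, 20GG79:6. The promoters or targeting that drive these reporters are not described in the sources used here beyond the line names. In every statement that lists 6 values, the mice stand in the order of this paragraph.

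The share of blood endothelial cells differed widely between the animals sorted. It was 52.8, 51.2, 58.7, 57.1, 40.2 and 9.92% of the cells of a mouse (exact 95% intervals from 45.6 to 59.9% for the first and from 6.46 to 14.4% for the last, counting error only). The 5 other mice gave no cell that passed. They were the 2 females of the dual line, 20GG79:1 and 20GG95:3 (upper bounds of the exact interval 1.02% and 0.728%), and 3 males of the lines ACTA2GFP and PDGFRbGFP with 5, 8 and 9 cells, too few to give a share. Each mouse was of 1 line and on plates of its own, so a share in the colon cannot be told apart from the way that mouse's cells were sorted.

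Endothelium is held together by VE-cadherin (Cdh5) and other junction proteins, and it receives vascular endothelial growth factor through Flt1 and Kdr. In the gut mucosa most of the blood endothelium is capillary, much of it fenestrated: its thin wall has pores bridged by diaphragms of Plvap, through which absorbed water, nutrients and hormones pass into the blood. Arterial endothelium carries gap junctions of Gja4 and Gja5 and is laid on elastic matrix. Venules take up leukocytes through adhesion molecules such as P-selectin (Selp) and, in the intestine, the addressin Madcam1, which lymphocytes homing to the gut recognise. Lymphatic endothelium, the other endothelial class of the wall, is specified by the transcription factor Prox1, grows through the receptor Flt4, draws in dendritic cells with the chemokine Ccl21a and carries absorbed lipid away.

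The limits of the rule fell in sparse stretches for 4 of the 6 conditions. The member closest to the Cdh5 limit had 50.3 CPM and the closest cell outside it, with all other conditions met, 49.1 CPM, and 57 cells failed on Cdh5 alone. For Flt1 these values were 104.6 and 92.8 CPM, with 14 cells failing on it alone. The summed lymphatic genes left a gap from 317.5 to 649.7 CPM, Notch3 from 28.1 to 403.7 CPM, Epcam from 25.1 to 169.5 CPM and Myh11 from 88.3 to 1160 CPM, and these conditions alone removed 9, 1, 4 and 1 cells. The members held between 46758 and 1046988 gene counts each (median 255754), from a median of 4244 genes. No 2 of the cells held identical counts.

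One library set stood apart. In mouse 19CB4:5 the 8 fibroblast markers Pdgfra, Dcn, Lum, Col1a1, Col1a2, Col3a1, Dpt and Mfap5 summed to 1495 CPM in blood endothelial cells, against 68.1 to 293.2 CPM in the other mice. The same genes summed to 3561 CPM in its lymphatic cells and to 4311 CPM in its cells outside both endothelial gates. All 41 of its blood endothelial cells had at least 2 markers of another class at 100 CPM or more, as had 5.71 to 37.5% of the cells of each other mouse. Each cell had a well of its own, no doublet caller was run, and whether these counts came from a second cell or from free RNA was not tested. The number of calls without this mouse is given with each comparison or with the other settings.

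The label of blood endothelium matched the given markers. Plvap, which was not in the rule, stood at 4219, 6958, 6574, 1281, 6661 and 5108 CPM of summed counts (mean 5133 ± 2164, SD, n = 6 mice). Only 18CB109:10 was low, and 97.8% of all cells held at least 100 CPM. The Plvap gene lies at chr8:71497765-71511752 of GRCm38, the build the submitters' processing notes name, and its level in single members ran from 3.01 to 16378 CPM.

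The other markers outside the rule varied less between mice. Egfl7, a secreted endothelial protein, had 1324, 2416, 1196, 2381, 1894 and 1978 CPM. Sox18, a transcription factor of developing vessels, had 1052.8, 1701, 1274, 991.4, 994.2 and 1526 CPM. The sialomucin Emcn had 1147, 1177, 1113, 1008.4, 1623 and 735.2 CPM. Each of these genes reached 100 CPM in 86.3 to 95.2% of the cells, and no mouse was far from the rest. The rule genes themselves had 2040 ± 264.6 CPM for Flt1 and 579.5 ± 215.3 CPM for Cdh5 (SD, n = 6 mice).

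Markers of other classes were lower and uneven between mice. The 6 given markers summed to 8404.5 to 14578 CPM, against 12.2 to 395.5 CPM for 12 mural, 21.9 to 146.3 CPM for 6 lymphatic and 6.01 to 77.05 CPM for 10 epithelial markers. The first sum holds the rule genes Flt1 and Cdh5, and the others hold Notch3, Myh11, Mmrn1, Lyve1 and Epcam, which the rule capped. The gate thus fixed part of this contrast, and the sums are of different genes. The mural sum was highest in 20GG79:6 and next in 19CB27:3 with 257.2 CPM. The immune markers summed to 0 to 126.1 CPM, highest in 19CB4:5, and the erythroid and platelet markers to 0 to 126.9 CPM, highest in 18CB39:3. The lymphatic gene Prox1 had 0.182 to 3.06 CPM by mouse and Pdpn 1.46 to 24.1 CPM. The leukocyte gene Ptprc was at most 0.923 CPM, in 19CB4:5. The proliferation gene Mki67 was at or below 0.205 CPM in every mouse and was counted in 1.85% of cells. A lymphatic and a stromal gene were nonetheless counted in most members: Ccl21a in 92.2% of cells at a median of 27.1 CPM, and Dcn in 94.4% at a median of 31.1 CPM.

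**Figure D1:**
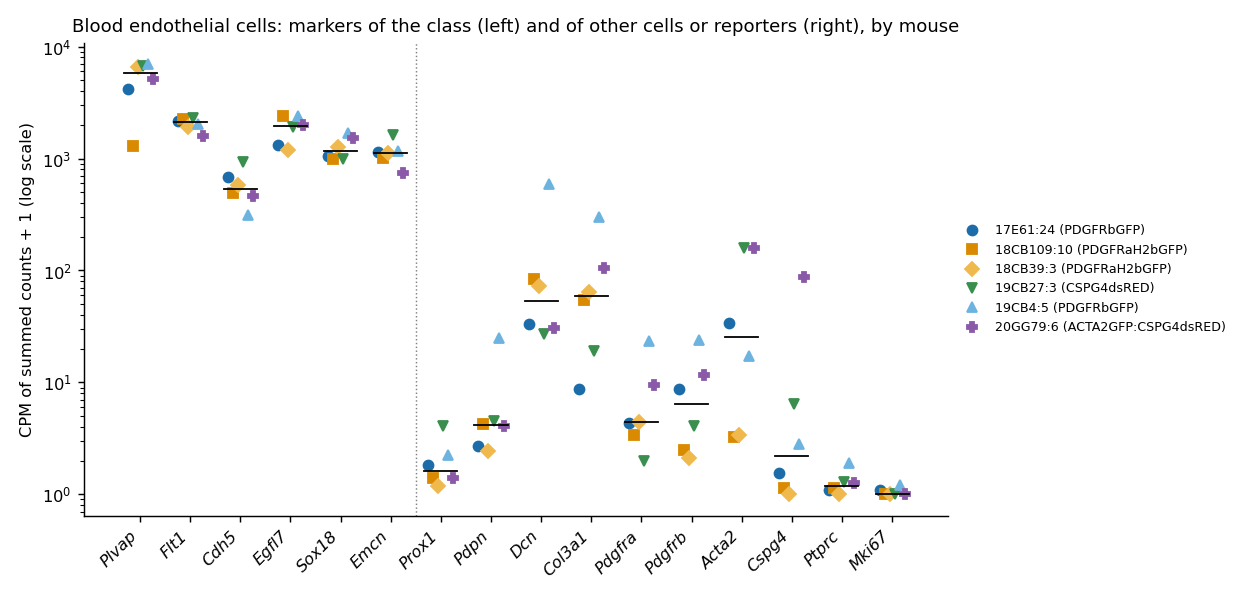
CPM of summed counts plus 1, on a log scale, in the blood endothelial cells of 6 mice, 1 symbol per mouse and a bar at the median. Markers of the class (left) lie between 313.7 and 6958 CPM, while markers of other cells (right) are lower, with 19CB4:5 highest for Dcn, Col3a1 and Pdgfra and 20GG79:6 for Cspg4.

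The genes after which the reporter lines are named were low in the blood endothelial cells of most mice. Pdgfrb, the receptor that marks pericytes, had 7.66 and 22.9 CPM in the PDGFRbGFP mice and 1.09, 1.47, 3.06 and 10.7 CPM in the others. Pdgfra, the fibroblast receptor, had 3.46 and 2.41 CPM in the PDGFRaH2bGFP mice and 3.37, 22.7, 0.973 and 8.57 CPM in the others. Each reached 100 CPM in 1 cell of 270. Cspg4 had 5.42 CPM in the CSPG4dsRED mouse and 86.7 CPM in the dual-line male, and at most 1.85 CPM elsewhere. In that male the Cspg4 level rested on few cells, since 2 of all 270 cells reached 100 CPM. Acta2, the smooth muscle actin, had 158.6 and 158.5 CPM in these mice and 2.27 to 32.9 CPM in the rest.

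The transcription factors of the endothelial program were present at moderate levels. Tcf4 had 546.7 ± 172.9 CPM, Gata2 377.9 ± 106.7, Fli1 234.6 ± 83.7 and Klf4 228.1 ± 100.2 CPM (SD, n = 6 mice). Erg had 98.5 ± 54.6 CPM and reached 100 CPM in 43 cells. Gata6 was at most 0.103 CPM. The caveolar coat protein Cav1 had 2436 ± 721.4 CPM and the antigen-presenting chains H2-K1 and H2-D1 had 2004 ± 373.5 and 2482 ± 384.5 CPM. Class II genes were low and uneven: Cd74 ranged from 0 to 292.9 CPM and H2-Ab1 from 22.9 to 353.2 CPM, both highest in 18CB109:10. The blood-brain barrier transporters Mfsd2a and Slc7a5 reached at most 0.130 and 4.54 CPM.

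Some genes were at high levels in part of the cells only. The apelin receptor Aplnr had 173.8, 678.4, 727.4, 380 and 1376 CPM in the first 5 mice and 741.5 CPM in 20GG79:6, but its median cell had 17.1 CPM and 86 cells reached 100 CPM. Esm1, a secreted proteoglycan of sprouting endothelium, was even between mice at 431.8 ± 79.5 CPM while its median cell had 19.4 CPM and its highest 8416 CPM. Car4, a membrane carbonic anhydrase of capillaries, had 348.2 ± 194.95 CPM with a median cell at 9.63 CPM. In contrast Ly6a and Ly6c1, surface proteins of mouse endothelium, were at 148.9 CPM or more and 158.3 CPM or more in all 270 cells.

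Genes were also ranked by how far blood endothelial cells stood above all cells of the same mouse outside both endothelial gates. This ranking describes the gate and has no test, and the cells outside include the 57 and 14 that failed on Cdh5 or Flt1 alone. Among genes with at least 100 CPM the 3 largest mean log2 ratios over 6 mice were 4.04 ± 2.56 for Exoc3l, 3.70 ± 1.61 for the thrombin receptor F2rl3 and 3.66 ± 1.68 for the fatty acid transporter Slc27a3 (SD). Aplnr, lower in this ranking, had 3.11 ± 2.81. The ratios differed greatly between mice, from 0.227 to 7.04 for Aplnr, and the makeup of the cells outside differed too.

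The comparison with lymphatic endothelial cells asked which genes part the 2 endothelial classes of the same colon. The lymphatic gate took cells with at least 50 CPM of Cdh5, at least 500 CPM of Mmrn1 and Lyve1 summed and the same limits on Notch3, Epcam and Myh11, and 67 cells passed. Summing gave 1 count profile for each class of a mouse, and the 4 mice with at least 5 cells of each class entered, with 230 blood and 63 lymphatic cells. Because the gates were cut on these cells, a call is no independent evidence that the classes exist. Lists of 4 values in the next paragraphs give mice 17E61:24, 18CB39:3, 19CB27:3 and 19CB4:5 in this order, and fold changes are log2, blood over lymphatic, with their standard error (SE) and the Benjamini-Hochberg adjusted p of edgeR's quasi-likelihood test with mouse as a block.

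Plvap, Jam2, Fabp4 and Sparc were among the genes higher in blood endothelial cells, and most of the lymphatic list was lower in them. Of 11321 genes tested, 1.82% were higher in blood cells and 1.7% were lower. The median log2 fold change of all genes was 0.49, or 0.36 with another scaling, so values below are read against that shift. The number of calls changed when 1 animal was left out, which also left fewer mice to test. As shares of the same 11321 genes, 1.02% were higher without 17E61:24, 1.01% without 19CB27:3 and 1.03% without 19CB4:5, and 0.963% were lower without 19CB4:5. Without 18CB39:3 the shares rose to 2.39% higher and 2.13% lower.

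Of 22 capillary genes tested, 11 were higher in blood cells and 2 lower, with a median log2 fold change of 3.65. Plvap had 4219, 6574, 6661 and 6958 CPM in blood cells and 335.3, 686.9, 486.4 and 1688 CPM in lymphatic cells. The ranges did not overlap, and the log2 fold change was 3.07 (SE 0.32, edgeR adjusted p = 4.1e-06). Sparcl1, a matricellular protein, had 2049, 2560, 2857 and 2839 CPM against 47.5, 31.2, 57.4 and 522.4 CPM (log2 fold change 4.98, SE 0.58, edgeR adjusted p = 1.27e-05). Ramp3, which turns the calcitonin-like receptor into an adrenomedullin receptor, had 296.5, 361.8, 424.4 and 501.7 CPM against 4.58, 1.01, 2.39 and 38.1 CPM. Esm1 had 440.5, 495.8, 461.8 and 374.1 CPM against 7.57, 2.01, 8.20 and 30.0 CPM. The 2 capillary-list genes that were lower in blood cells were the water channel Aqp1, with a log2 fold change of -2.61 (SE 0.57, edgeR adjusted p = 0.0096), and the fatty acid hydroxylase Cyp4b1, with 26.2, 1.09, 23.9 and 9.95 CPM against 973.6, 942.4, 1141 and 1021.6 CPM (-6.74, SE 0.70, edgeR adjusted p = 3.26e-06). Aqp1 lost its call without 19CB4:5 (edgeR adjusted p = 0.202).

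Growth factor and guidance receptors split between the classes. Of 17 genes of the VEGF, angiopoietin and apelin list, 4 were higher in blood cells and 2 lower (median 0.77). Nrp1, a co-receptor for VEGF and semaphorins, had 1312, 1065.8, 1470 and 1999 CPM in blood cells and 15.9, 7.04, 23.2 and 212.6 CPM in lymphatic cells (log2 fold change 5.66, SE 0.64, edgeR adjusted p = 8.31e-06). Aplnr had 173.8, 727.4, 1376 and 678.4 CPM against 2.58, 8.05, 8.20 and 61.3 CPM (5.81, SE 0.73, edgeR adjusted p = 3.29e-05). Flt4, the receptor of the lymphatic growth factor Vegfc, went the other way with 152.5, 240, 163.7 and 111.3 CPM against 1431, 3376, 2130 and 2207 CPM (-3.89, SE 0.35, edgeR adjusted p = 5.96e-07). Kdr did not pass the test, at 1263 ± 163.3 CPM in blood and 696.4 ± 209.95 CPM in lymphatic cells (SD, n = 4 mice; log2 fold change 0.77, SE 0.35, edgeR adjusted p = 0.340).

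Of 27 junction and pan-endothelial genes, 10 were higher in blood cells and 1 lower (median 1.05). The adhesion molecule Jam2 had 613.3, 806.7, 1066.9 and 856.97 CPM against 7.07, 5.03, 8.88 and 71.7 CPM (log2 fold change 6.01, SE 0.71, edgeR adjusted p = 1.64e-05). Cd34, a surface sialomucin, had 1217, 1574, 2697 and 1784 CPM against 147.1, 151.9, 151.99 and 474.99 CPM (3.00, SE 0.42, edgeR adjusted p = 0.000102). The single lower gene was the tight junction claudin Cldn5, with 106.8, 244.2, 217.2 and 98.96 CPM in blood cells and 955.95, 1654, 1465 and 1375 CPM in lymphatic cells (-3.24, SE 0.40, edgeR adjusted p = 2.19e-05). Emcn, one of the given blood markers, had a log2 fold change of 0.34 (SE 0.33, edgeR adjusted p = 0.749) and was lower in blood cells in 1 of 4 mice.

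The lipid uptake list had 5 of 17 genes higher in blood cells (median 0.83). Fabp4, a cytosolic fatty acid binder, had 1181, 1541, 712.3 and 1030.1 CPM against 51.3, 28.2, 40.6 and 130.6 CPM (log2 fold change 4.22, SE 0.53, edgeR adjusted p = 3.33e-05). Scarb1, the receptor for high-density lipoprotein, had 1200, 1174, 1804 and 1951 CPM against 18.7, 209.2, 40.6 and 195.3 CPM (4.19, SE 0.57, edgeR adjusted p = 8.65e-05). The fatty acid receptor Cd36 had 992.9, 1914, 1116 and 1260 CPM against 13.1, 21.1, 195.03 and 154.9 CPM (4.41, SE 0.68, edgeR adjusted p = 0.000337). The Cd36 call was lost when only the mice with at least 10 cells of each class were kept (edgeR adjusted p = 0.176). Gpihbp1, which anchors lipoprotein lipase on capillaries, did not pass (156.3 ± 76.97 against 397.7 ± 213.9 CPM, SD, edgeR adjusted p = 0.283). Its lymphatic value was the higher one in all 4 mice, but nearly equal in 18CB39:3 (115.6 CPM in blood and 116.7 CPM in lymphatic cells).

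Matrix and vasoactive genes followed. Of 30 basement membrane and matrix genes, 7 were higher in blood cells and 1 lower (median 0.40, close to that of all genes). Sparc had 3011, 2805, 3064 and 2581 CPM against 127.2, 205.2, 282.1 and 931.5 CPM (log2 fold change 3.25, SE 0.45, edgeR adjusted p = 0.000101). A pair of related collagens ran in opposite directions: Col15a1 had 274.02, 380.9, 271.7 and 139.3 CPM in blood cells and 2.66, 4.02, 1.37 and 33.5 CPM in lymphatic cells (5.89, SE 1.21, edgeR adjusted p = 0.00587). Col18a1 had 26.4, 26.6, 5.70 and 25.2 CPM against 773.9, 791.5, 862.8 and 499.3 CPM (-5.40, SE 0.60, edgeR adjusted p = 6.65e-06). The insulin-like growth factor binders did likewise, Igfbp7 at 2.62 (SE 0.36, edgeR adjusted p = 9.56e-05) and Igfbp5 at -7.78 (SE 0.49, edgeR adjusted p = 4.68e-09). Of 23 vasoactive genes, 3 were higher and 2 lower. Ace, which makes angiotensin II, had 1003.1, 1051.2, 586.1 and 467.5 CPM against 155.8, 14.1, 68.3 and 67.03 CPM (3.41, SE 0.61, edgeR adjusted p = 0.0017).

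Genes of arterial and venous identity were mixed. Of 26 arterial genes, 8 were higher in blood cells and 2 lower (median 1.87), and of 19 venous genes, 4 were higher and 2 lower (median 0.00). The chemokine Cxcl12 had 2214, 4348, 2959 and 3892 CPM in blood cells and 79.1, 142.8, 64.2 and 662.2 CPM in lymphatic cells (log2 fold change 4.397, SE 0.47, edgeR adjusted p = 4.46e-06). The secreted chaperone clusterin, Clu, had 1245, 1070.3, 1800 and 1196 CPM against 41.8, 7.04, 76.9 and 195.3 CPM (4.63, SE 0.64, edgeR adjusted p = 8.65e-05). Epas1, the hypoxia-inducible factor of endothelium, had 1257, 1663, 1681 and 1381 CPM against 127.4, 24.1, 160.5 and 397.6 CPM (3.44, SE 0.58, edgeR adjusted p = 0.000803). None of the 15 Notch genes tested was called by edgeR, with 5 higher and 2 lower at an unadjusted p under 0.05 (8.92% and 4.35% of all genes). Their median log2 fold change was 1.79, against 0.49 for all genes, and DESeq2 called 5 higher and 1 lower.

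The lymphatic list was lower in blood cells in 15 of 19 genes (median -7.18). Prox1 had 0.812, 0.182, 3.06 and 1.23 CPM in blood cells and 402.3, 814.7, 266.4 and 540 CPM in lymphatic cells (log2 fold change -8.95, SE 0.92, edgeR adjusted p = 2.98e-06). Reln, a secreted glycoprotein, had 3.54, 2.37, 3.06 and 6.46 CPM against 1186, 1420, 1050.3 and 947.7 CPM (-8.42, SE 0.54, edgeR adjusted p = 4.68e-09). Ccl21a, which draws dendritic cells into lymphatics, had 55.8, 9.29, 56.9 and 46.7 CPM against 913.4, 1551, 1669 and 1640 CPM (-5.44, SE 0.53, edgeR adjusted p = 1.63e-06). The scavenging chemokine receptor Ackr2 (-7.71), the cytokine Il7 (-8.85), neurotensin Nts (-8.68) and the matrix protein Comp (-8.81) were lower as well, each at 14.4 CPM or less in the blood cells of every mouse.

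A total of 39 of the 81 genes selected for naming kept their call and direction in every alternative setting, and none reversed. Among them were Plvap, Sparcl1, Ramp3, Esm1, Nrp1, Aplnr, Jam2, Cd34, Fabp4, Scarb1, Sparc, Cxcl12, Clu, Ace, Cldn5, Flt4, Col18a1, Prox1, Reln and Ccl21a. Of the 49 such genes that were higher in blood cells, 38 had their highest lymphatic level in 19CB4:5, the mouse whose blood endothelial cells all had markers of another class. The part of shared RNA in these levels was not tested. Without this mouse 21 of the 80 selected genes with a value lost their call, and of the called genes described above only Aqp1 did. The higher and lower calls were then 8 and 1 for the capillary, 4 and 1 for the VEGF, 9 and 1 for the junction, 4 and 0 for the lipid uptake and 5 and 1 for the matrix list. They were 3 and 1 for the vasoactive, 7 and 0 for the arterial, 3 and 1 for the venous and 0 and 14 for the lymphatic list. Leaving out 17E61:24 or 19CB27:3 removed the call of 23 of the 81 genes each.

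**Figure D2:**
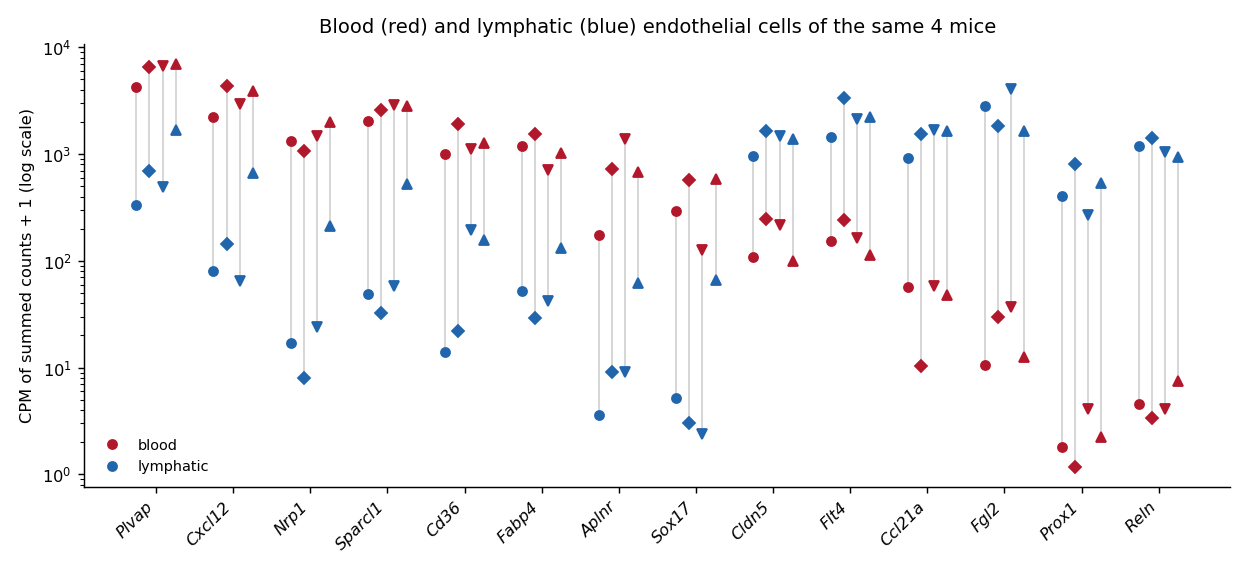
CPM of summed counts plus 1, on a log scale, for 14 genes in blood (red) and lymphatic (blue) endothelial cells, 1 symbol shape per mouse (circle 17E61:24, diamond 18CB39:3, downward triangle 19CB27:3, upward triangle 19CB4:5), with a grey line joining the classes of a mouse. The classes do not overlap for any of the 14 genes, and 19CB4:5 has the highest lymphatic level for Plvap, Cxcl12, Nrp1, Sparcl1, Fabp4, Aplnr and Sox17.

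The spread along the vascular tree was described with sums of known genes. The arterial sum added Gja4, Gja5, Sema3g and Bmx, the venous sum added Ackr1 and Selp, and each was cut at 100 CPM. Cells under both limits were called capillary-gated, without the use of any capillary marker. Of the 270 cells, 50% were arterial-gated and 47.04% capillary-gated, with 7 venous-gated cells and 1 cell above both limits. These are ranges and not cell types, because 15 cells had an arterial sum of 50 to 100 CPM and 7 of 100 to 200 CPM. The arterial sum was 0 in 26 cells and the venous sum in 70% of all cells.

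The arterial gate rested mostly on the connexin Gja4. It reached 100 CPM in 89.6% of the arterial-gated cells and was the only gate gene to do so in 69.6%, while the connexin Gja5 reached it in 13.3%, the semaphorin Sema3g in 18.5% and the kinase Bmx in 4.44%. The arterial-gated share was 57.1, 51.2, 45.9, 68.8, 34.04 and 41.7% of a mouse's blood endothelial cells. Gja4 itself had 407.9, 478.8, 410, 685.03, 326.5 and 541.3 CPM by mouse. Median gene counts were 267344 in arterial-gated and 236197 in capillary-gated cells.

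**Figure D3:**
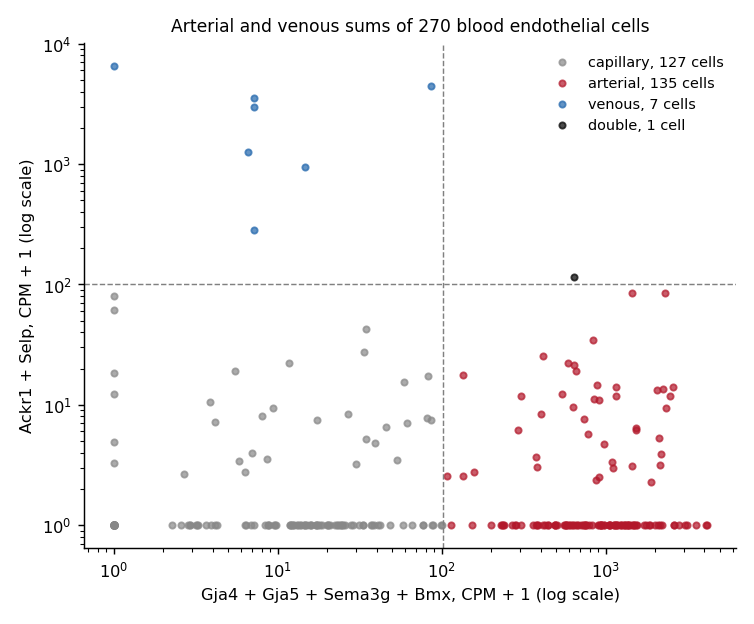
Arterial sum (x) and venous sum (y) of the 270 blood endothelial cells in CPM plus 1, both on log scales, with dashed lines at the limits of 100 CPM. Most cells lie along the bottom with little venous signal, on both sides of the arterial limit and with few close to it. At high venous sums stand 7 cells.

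The 7 venous-gated cells were few and shared some genes but not others. They came from 17E61:24 (3 cells), 18CB39:3 (2), 19CB27:3 and 20GG79:6 (1 each), and 19CB4:5 and 18CB109:10 gave none. Madcam1, which the gate did not use (chr10:79664559-79668537 of GRCm38), had 815.4, 2900, 2332, 3057, 3191 and 1794 CPM in 6 of these cells and 0 in the seventh. It reached 100 CPM in 0 arterial-gated cells and in 1 capillary-gated cell. Per mouse, Madcam1 had 55.4, 0.103, 113.6, 0, 134.2 and 132.3 CPM, so it was near 0 in the mice that gave no venous-gated cell.

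Other genes outside the gate split in the same cells. Vwf, the platelet-binding factor stored by endothelium, reached 100 CPM in 7 of 7 venous-gated cells with a median of 1560 CPM, against 15.6% of arterial-gated and 14.2% of capillary-gated cells. Lrg1, a glycoprotein of venules, and the leukocyte ligand Icam1 each reached it in 5 of 7. Lrg1 did so in 22.96% of arterial-gated and 15.7% of capillary-gated cells, and Icam1 in 5.93% and 10.2%. Cxcl12 ran the other way, with 1 of 7 venous-gated cells at 100 CPM against 97.8% of arterial-gated and 98.4% of capillary-gated cells. Sparcl1 reached 100 CPM in 2 of 7 against 100% and 99.2%, and Dll4, a Notch ligand, in 0 of 7 against 37.04% and 38.6%. The exception within the 7 was the cell with no Madcam1, which had 283.96 CPM of Selp, no Ackr1, 1725 CPM of Sparcl1 and 952.6 CPM of Emcn. No mouse had 5 venous-gated cells, so these genes were not tested. Madcam1, Vwf, Lrg1, Icam1, Cxcl12, Sparcl1, Dll4, Nr2f2, Vcam1, Ephb4 and Emcn were picked after their values were seen.

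Arterial-gated and capillary-gated cells were compared within all 6 mice, with the gate genes kept out of the calls. In these libraries edgeR called 0 of 9612 genes higher and 0 lower (0% in both directions), with 1.45% higher and 1.15% lower at an unadjusted p under 0.05 and a smallest adjusted p of 1. A pair of other settings that keep the gate did make calls. DESeq2 called 1.09% of the 9612 genes higher and 0.593% lower. Without the filter on low counts edgeR called 7 genes higher and 4 lower, among them Fbln5, Clu, Cd36 and Col4a1, which are described below. Its lower calls also held the stress genes Egr1 (log2 difference -1.42, edgeR adjusted p = 8.34e-06) and Fos (-0.65, edgeR adjusted p = 0.0314). In the main fit Fos had an edgeR unadjusted p of 0.213. It went both ways between mice, with 81.2 against 1861 CPM in 20GG79:6 and 3608 against 3053 CPM in 19CB4:5. DESeq2 called the stress gene Fosb lower (-3.76, DESeq2 adjusted p = 0.00019). Of 22 genes induced by stress and dissociation, 0 were higher and 2 lower at an unadjusted p under 0.05 in the main fit (median -0.15). With Gja4 left out of the arterial gate, a setting added after the data were seen, 4 genes were higher and 0 lower: Igfbp4, Fbln5, Clu and the transcript CT010467.1.

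The arterial list, chosen with earlier results of these data known, leaned to arterial-gated cells below that threshold. Of its 25 tested genes none passed the adjusted threshold, 11 were higher at an unadjusted p under 0.05 and the median log2 difference was 0.83, against 0.03 for all genes. DESeq2 called 4 of them higher: Fbln5, Mecom, Eln and Edn1. The genes named in this and the next paragraph were picked after their values were seen.

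Fbln5, an elastic fibre protein (chr12:101746565-101819055 of GRCm38), had 412.4, 394.01, 343.4, 766.3, 480 and 294.2 CPM in arterial-gated cells and 125.6, 63.4, 51.5, 4.96, 5.57 and 11.2 CPM in capillary-gated cells. The 2 sets did not overlap, and the log2 difference was 4.13 (SE 0.82, edgeR unadjusted p = 0.000451, adjusted p = 1; 2.82e-09 in edgeR without the filter on low counts and 3.6e-06 in DESeq2). It still came from few cells, with 24.4% of arterial-gated cells at 100 CPM or more against 6.30% of capillary-gated cells. Elastin, Eln, had 183.2, 78.2, 207.6, 101.6, 229.1 and 299.9 CPM against 63.7, 90.4, 53.1, 6.87, 35.7 and 91.6 CPM, lower in 1 mouse, 19CB4:5. Clu had 1542, 1429, 1344, 1473, 2504 and 2047 CPM against 900.6, 977.03, 808.1, 1171, 1454 and 763.1 CPM (log2 difference 0.75, SE 0.16, edgeR unadjusted p = 0.000608, adjusted p = 0.000461 without the filter). Other arterial genes had a log2 difference near that of all genes, such as Cxcl12 (0.15, SE 0.13) and Sox17 (0.13, SE 0.29). Efnb2 went both ways, higher in the arterial-gated cells of 3 mice and lower in 3 (-0.07, SE 0.94).

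The capillary and the basement membrane lists went both ways. Of 30 basement membrane and matrix genes, 3 were higher and 2 lower in arterial-gated cells at an unadjusted p under 0.05, with a median of 0.01. Col4a1, a basement membrane collagen, had 1018.99, 663.6, 1006.7, 936.1, 540.96 and 1431 CPM against 1282, 1139, 1480, 2497, 1212 and 2259 CPM, lower in 6 of 6 mice (log2 difference -0.83, SE 0.16, edgeR unadjusted p = 0.000353, adjusted p = 1, or 0.000212 without the filter). Gpihbp1 had 209.01, 177.6, 50.4, 81.6, 64.1 and 55.1 CPM against 355.997, 122.97, 206.3, 571.4, 117.4 and 485.4 CPM, lower in 5 of 6 mice (-1.54, SE 0.55). Car4 had a log2 difference of -1.21 (SE 0.44). Plvap (0.15, SE 0.10) and Rgcc (-0.32, SE 0.22) lay near 0, and Cd36 had a higher value in arterial-gated cells of all 6 mice (0.71, SE 0.29, edgeR unadjusted p = 0.0336, adjusted p = 0.0356 without the filter). Of all 9612 genes tested, 1.80% were higher and 1.55% lower in the arterial-gated cells of every mouse. Of 21 capillary genes tested, 1 was higher and 2 lower at an unadjusted p under 0.05, with a median of -0.05.

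**Figure D4:**
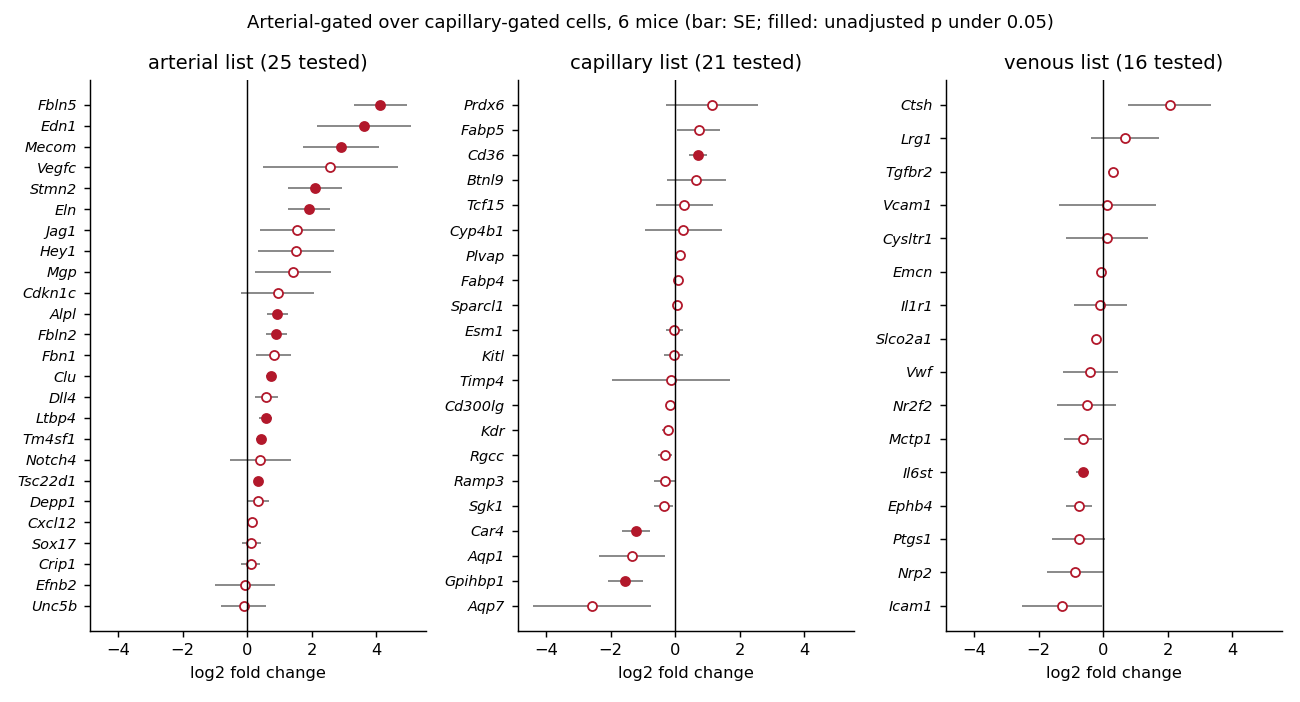
Log2 difference of arterial-gated over capillary-gated cells with its SE over 6 mice for the arterial, capillary and venous lists, filled where the unadjusted p was under 0.05. Of 25 arterial genes 11 are filled, all to the right of 0, while none of the genes shown passed the adjusted threshold in edgeR.

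The reporter lines with 2 mice each, PDGFRbGFP and PDGFRaH2bGFP, asked whether blood endothelial cells differed with the line they were sorted from. In the fit of all 6 mice edgeR called 0 of 15450 genes higher and 0 lower (0% in both directions), with 3.6% higher and 1.04% lower in PDGFRbGFP at an unadjusted p under 0.05 and a smallest adjusted p of 0.916. DESeq2 called 1.73% of the 15450 genes higher and 0.350% lower, and edgeR without the low-count filter called 18 genes higher and 1 lower. Removing 18CB39:3 gave 1.24% higher and 6 genes lower, and removing 18CB109:10 gave 60 genes higher and 7 lower, each leaving 1 mouse in that line, which is then assumed to vary like the others. Each mouse had plates of its own, and any difference in sorting between the lines cannot be told apart from the line.

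The genes below were picked after their values were seen. Foxf1, a transcription factor of gut mesenchyme and endothelium, had 109.6 and 65.8 CPM in the PDGFRbGFP mice, 1.27 and 3.21 CPM in the PDGFRaH2bGFP mice and 50.8 and 61.2 CPM in the other mice. The PDGFRaH2bGFP mice were thus low against all 4 others (log2 fold change 5.28, SE 1.28, edgeR unadjusted p = 0.00209, adjusted p = 0.916; DESeq2 adjusted p = 0.000138). Igfbp3 had 1645 and 2134 CPM against 901.3 and 279.4 CPM, and 1696 and 1673 CPM in the others (1.71, SE 0.52, edgeR unadjusted p = 0.00866, adjusted p = 0.0248 without the low-count filter and 0.0207 without 18CB39:3). Klf2, a factor induced by blood flow, had 1621, 463.5, 425.2, 139.1, 196.7 and 130.8 CPM and was high in 17E61:24 alone. Kitl, the ligand of the receptor Kit, had 205.6 and 182.7 CPM against 551.5 and 390.95 CPM (-1.26, SE 0.49, edgeR unadjusted p = 0.0284).

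Genes induced by stress and tissue dissociation varied between mice. The 22 genes summed to 9609, 19993, 6926, 7615, 11647 and 9219 CPM, highest in 19CB4:5. Fos had 622.6, 3322, 917.2, 896.97, 1876 and 1286 CPM, and Jun had 600.97, 2441, 516.8, 273.5, 877.6 and 1647 CPM. The heat shock gene Hspa1a had 760, 1912, 388.2, 397.6, 1209 and 771.5 CPM. In the line comparison none of the 22 was called by edgeR or by DESeq2, and edgeR without the low-count filter called Jun (log2 fold change 2.01, adjusted p = 0.0202) and Hspa1a (1.83, adjusted p = 0.0363) higher. With the filter, 6 were higher in PDGFRbGFP at an unadjusted p under 0.05. Of the 22, 11 were higher and 0 lower without overlap, against 21.4% and 12.1% of all genes tested. The list's median was 1.05 against 0.13 for all genes, and its part in other differences between these mice was not tested. Hspa1a and its near-identical copy Hspa1b share reads, so either level is uncertain.

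**Figure D5:**
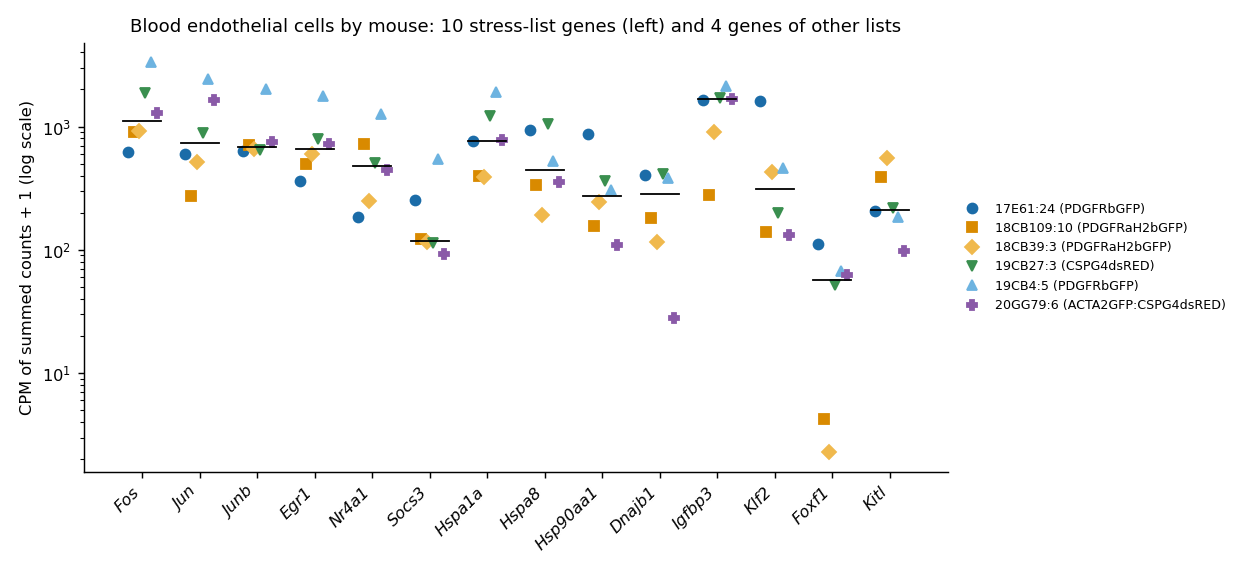
CPM of summed counts plus 1, on a log scale, for 10 stress genes and 4 other genes in blood endothelial cells of 6 mice, 1 symbol per mouse and a bar at the median. For Fos, Jun, Junb, Egr1, Nr4a1, Socs3 and Hspa1a the highest mouse is 19CB4:5, and for Foxf1 the PDGFRaH2bGFP mice lie at 1.27 and 3.21 CPM.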

How the data were processed

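Single cells were sorted into plates and made into Smart-Seq2 libraries, per the labels' protocols. The deposited table holds raw counts per gene and spike-in, 1 column per cell, with no normalization by the authors. The submitters' processing notes name bcl2fastq, Bowtie, Bowtie2, Subread, featureCounts and the builds GRCm38 and mm10, without versions or roles. Any filter on cells and the strand setting are not described there. Counts of overlapping or near-identical genes cannot be fully parted. The 92 spike-ins were left out of totals, and symbols and positions came from GENCODE for GRCm38 (46005 of 46517 identifiers). The members, gates and 18 gene lists were chosen with earlier results of these data known.

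Cells are not replicates, so counts of a class were added up within each mouse and tested with edgeR 4.0.16 in R 4.3.3 (TMM, filterByExpr, robust quasi-likelihood fit, Benjamini-Hochberg, threshold 0.05, here passed by 206 genes higher and 192 lower in blood than in lymphatic cells), with DESeq2 1.42.0 as an alternative. A mouse needed 5 cells of each class, or 10 cells for the lines. Mouse was a block where both classes came from the same animal, and the genes of the gates stayed out of the calls. The scripts were tested on simulated data. Named were genes with adjusted p at or below 0.05, a mean of 50 CPM or more in the higher class and the same direction in every mouse: the 10 largest changes each way and up to 4 per list and direction. Reads carry no molecular identifiers and may be PCR copies, so intervals cover counting error only, and p-values measure the spread between these mice. Levels are CPM of summed counts and are not compared between genes, since they are not per length.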

Additional observations from a re-analysis of the deposited data

Results flagged for a closer look

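Among 20 values per mouse that were checked for 1 mouse lying far from the other 5, 6 were marked by the gap to the nearest mouse. Chance marks about 1 in 20 where values are independent and normally distributed. That was not shown for these CPM values, and Pdgfra is also among the fibroblast markers, so how many chance would mark here is not known. Cspg4 had 86.7 CPM in the blood endothelial cells of 20GG79:6, with the next mouse at 5.42 CPM. Pdgfra had 22.7 CPM in 19CB4:5, with the next at 8.57 CPM. The fibroblast markers summed to 1494.9 CPM in 19CB4:5, with the next at 293.2 CPM, and the stress genes to 19993 CPM in the same mouse, with the next at 11647 CPM. The markers of enteric and Schwann glia summed to 17.02 CPM in 20GG79:6, with the next at 3.20 CPM. The erythroid and platelet markers summed to 126.9 CPM in 18CB39:3, with the next at 12.3 CPM. The origin of these counts was not tested.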

How the results depend on the processing

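Gene counts are given as shares of the genes tested in each comparison under the settings of the report. Blood against lymphatic endothelial cells gave 1.82% higher and 1.70% lower. The share higher became 2.88% without the filter on low counts. DESeq2 called 8.51% higher and 4.56% lower. Without cells holding markers of another class the shares were 0.857% and 0.768%, and with at least 10 cells per class and mouse 0.866% and 0.733%, from 2 mice. Leaving out 1 mouse gave 1.01 to 2.39% higher and 0.963 to 2.13% lower. Without the replicate block for mouse, 1.42% were higher and 1.55% lower, and 67 of the 81 named genes kept their call. Arterial-gated against capillary-gated cells gave 0% and 0%, and also when any mouse was left out, without the replicate block and with the sums cut at 50 or 200 CPM. Without the low-count filter 0.0728% were higher and 0.0416% lower, with DESeq2 1.09% and 0.593%, and with a gate without Gja4 0.0416% were higher. The reporter lines gave 0% and 0%. Without the low-count filter 0.117% were higher and 0.00647% lower, with DESeq2 1.73% and 0.350%, and leaving out 1 mouse gave 0 to 1.24% higher and 0 to 0.0453% lower. The cause of these changes was not tested. The comparison of venous-gated with capillary-gated cells was not run under any setting, because no mouse had 5 venous-gated cells. Levels of the 6 given markers moved by less than 1 SD over mice under 3 other settings. The analysis is limited by 4 to 6 mice, by sorting that cannot be told apart from line, and by as few as 16 cells behind a mouse's level, 6 for lymphatic and 5 for capillary-gated cells.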
